A study of Caenorhabditis elegans with 2 samples.

Results

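Small nucleolar RNA (snoRNA) genes lay close to some of the strongest regions found by chromatin immunoprecipitation of ELT-4, a GATA-type zinc finger protein of Caenorhabditis elegans. A region counted as near a snoRNA gene when its summit, the base of highest signal, lay within 500 bp of an annotated snoRNA gene and not within 500 bp of a tRNA gene. This rule took 202 of the 30000 regions called on the pooled replicates, or 0.673%, and the sequence it covers is 0.373% of the nuclear genome. The authors label that list of regions as peaks and background, so a region in it need not be a peak. The tRNA clause removed 1 region, since 203 lay near a snoRNA gene before it was applied. The choice used positions only and no signal.

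All samples came from hermaphrodite late embryos of strain OP111, with the genotype unc-119(ed3) III and the integrated transgene wgIs111, which stably expresses ELT-4 with GFP and FLAG at its C-terminus. Embryos were taken 3 hours after bleach synchronization, whole organisms were used, and there were 2 biological replicates of 1 group. The precipitation used an antibody to GFP per the sample description, although the antibody label reads elt-4. The data are therefore those of 1 transgenic line in which tissues are mixed, with no untagged or other-stage group analysed here, and a region cannot be assigned to a cell type.

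Box C/D snoRNAs guide 2′-O-methylation of ribosomal and other RNAs, and box H/ACA snoRNAs guide conversion of uridine to pseudouridine. Many worm snoRNA genes sit in introns of protein-coding genes, and some carry promoters of their own, including promoters of the type read by RNA polymerase III. In tRNA genes that polymerase is recruited through an A box and a B box, short internal elements bound by the factor TFIIIC.

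Sequences are shown for 9 of the snoRNA genes near strong regions. Of these, 8 held an A box followed by a B box, and the last, ZK994.7, held no such pair. The 9 are examples and not the strongest in order. In all, 23 genes lay near a peak that passed the authors' reproducibility filter, described below. M106.6 had the weakest of these peaks, so every such gene left out, ZK265.10, C10C6.8 and ZK484.9 among them, had a stronger one. Of all 23 genes, 15 held the pair, a lower share than among the 9 shown. Among those 15, 6 held it with no mismatch in the B box, a lower share than among the 8 shown with the pair. The examples thus favour the pair. The sequences are from the WBcel235 reference genome, the same assembly as ce11, and run 5′ to 3′ along the gene. Those with the pair start 5 bases before the A box, except for C51F7.4, which starts at the gene; all end at the end of the annotated gene. Capitals mark the A box and then the B box, and in W03C9.9 and F55A11.10 also TGATGA (box C) and CTGA (box D).
C51F7.4 (V:12303599-12303693, plus strand): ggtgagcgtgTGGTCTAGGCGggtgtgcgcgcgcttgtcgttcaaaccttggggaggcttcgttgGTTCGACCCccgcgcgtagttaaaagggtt
W03C9.9 (II:11960821-11960959, plus strand): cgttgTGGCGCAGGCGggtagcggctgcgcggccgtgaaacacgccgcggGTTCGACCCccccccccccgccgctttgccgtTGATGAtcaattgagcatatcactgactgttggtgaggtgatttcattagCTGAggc
T03F7.8 (V:11314198-11314332, plus strand): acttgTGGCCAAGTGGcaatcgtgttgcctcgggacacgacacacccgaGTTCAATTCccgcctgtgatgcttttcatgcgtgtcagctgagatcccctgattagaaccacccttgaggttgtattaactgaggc
T06C12.16 (V:15873855-15873983, minus strand): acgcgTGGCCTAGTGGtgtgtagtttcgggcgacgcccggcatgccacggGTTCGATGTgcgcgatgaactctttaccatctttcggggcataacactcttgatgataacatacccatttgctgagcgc
C04G6.12 (II:5105157-5105294, minus strand): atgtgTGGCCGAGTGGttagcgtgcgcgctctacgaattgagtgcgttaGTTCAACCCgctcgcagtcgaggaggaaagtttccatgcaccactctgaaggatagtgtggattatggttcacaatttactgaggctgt
C41C4.11 (II:8107196-8107331, minus strand): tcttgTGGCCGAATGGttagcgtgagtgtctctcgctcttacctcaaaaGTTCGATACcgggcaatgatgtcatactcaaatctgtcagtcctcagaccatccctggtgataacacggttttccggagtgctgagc
F55A11.10 (V:11782921-11783082, plus strand): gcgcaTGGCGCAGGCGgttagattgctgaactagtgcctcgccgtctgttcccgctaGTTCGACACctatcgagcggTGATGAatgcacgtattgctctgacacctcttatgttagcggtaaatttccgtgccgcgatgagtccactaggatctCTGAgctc
M106.6 (II:10840250-10840391, plus strand): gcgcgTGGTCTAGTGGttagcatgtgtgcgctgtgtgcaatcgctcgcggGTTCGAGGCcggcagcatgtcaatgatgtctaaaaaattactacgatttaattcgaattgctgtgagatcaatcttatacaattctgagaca
ZK994.7 (V:8500579-8500645, plus strand): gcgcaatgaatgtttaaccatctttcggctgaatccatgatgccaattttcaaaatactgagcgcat

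In 7 of the 8 genes shown with the pair the B box lay wholly or mostly before the annotated start of the snoRNA. In C51F7.4 both boxes lay inside the gene. The A box began 72 bases before the start of W03C9.9 and the B box 27 bases before it. In T06C12.16 the B box began 7 bases before the start and ran into the gene. The A box was searched as its textbook consensus with no mismatch and the B box as GTTCGANNC with at most 1 mismatch, 25 to 80 bases apart on the same strand. W03C9.9, C41C4.11, F55A11.10, M106.6 and C51F7.4 matched the B box letters with no mismatch, and T03F7.8, T06C12.16 and C04G6.12 with 1.

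The regions were stronger than most of the list. Their median pooled signal was 36.2, with quartiles of 29.0 and 51.3, against 30.5 over all 30000 regions, with quartiles of 25.1 and 39.3. Signal here is the number that the authors' peak caller assigned, whose scale no source states, and sequencing depth is unknown. Single regions ran from 21.6 to 234, and 141 of the 202 lay above the median of the whole list while 61 lay below it. The set thus held some of the strongest regions of the experiment together with many ordinary ones.

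An irreproducible discovery rate (IDR) filter had been applied by the authors, and the IDR peaks it left are exactly the pooled regions of highest signal. Of the 202 regions, 21 were IDR peaks, or 10.4% (exact Clopper-Pearson 95% interval 6.55 to 15.5%), beside 1.14% of all pooled regions. A q-value of at most 0.05 was given to 37 of the 202, or 18.3%, beside 4.26% of all. The median q-value of the 202 was 0.496 and the highest 0.874, so most of them are not called peaks at that limit. Among the 10 pooled regions of highest signal 3 were near a snoRNA gene, among the 20 highest 7 were, and among the 100 highest 16 were. The remaining 5 IDR peaks near snoRNA genes ranked between 107 and 325. These shares are descriptions of 1 list, and intervals cover the counting of regions only, since neighbouring regions and regions of the same libraries are not independent.

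The regions were also found in the replicate lists more often than regions at large. A region of at least 1 bp overlap was present in both replicate lists for 150 of the 202, or 74.3%, beside 55.9% of all pooled regions. Another 29 had a match in replicate 1 only, 21 in replicate 2 only and 2 in neither. A match among the strongest regions of both replicates, taking from each list as many as there were IDR peaks, was found for 15, or 7.43%, beside 0.51% of all. Median signal was 22.6 in replicate 1 and 25.1 in replicate 2 for the matched regions, against 19.0 and 21.1 for all matched pooled regions. Over the 150 regions matched in both, Spearman's rho between the replicate signals was 0.503, and over the 16769 such regions of the whole list it was 0.312. Both are correlations across regions, which share the same libraries. Pooled regions can overlap, and the 202 formed 171 separate stretches. Some therefore share a match: 179 matched replicate 1 through 149 distinct regions, and 171 matched replicate 2 through 141.

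**Figure D1:**
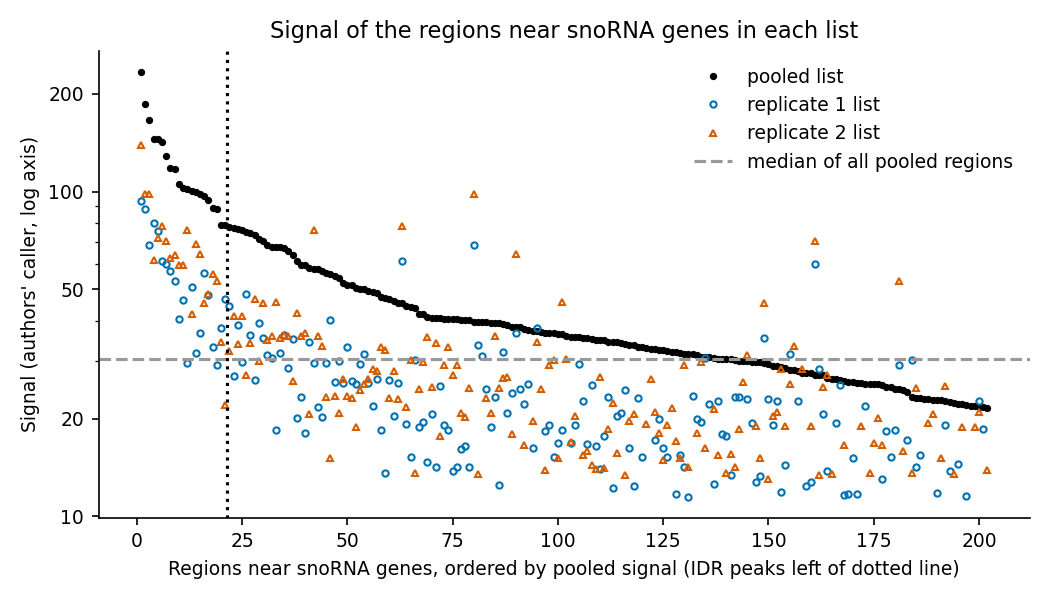
Signal (log axis) of each of the 202 regions near snoRNA genes, ordered by pooled signal, in the pooled list (black points), the replicate 1 list (blue circles) and the replicate 2 list (orange triangles), with the median of all pooled regions (30.5) as a dashed line. The 21 IDR peaks stand left of the dotted line, and the high replicate values far to the right belong to weak pooled regions that overlap the replicate region of a stronger neighbour.

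Of 346 annotated snoRNA genes, 170 had a region within reach, or 49.1%, and 23 had an IDR peak, or 6.65%. With the same reach of 500 bp, a region was near 58.7% of 612 tRNA genes, 32.6% of 129 snRNA genes and 7.17% of 15363 piRNA genes, and an IDR peak near 4.08%, 0.775% and 0.0325% of them. Regions number 30000 and by the authors' label include background, so a region within reach is by itself common. The 23 genes belong to 21 peaks because 2 peaks lay near a pair of genes, C51F7.4 with C51F7.3 and C27H5.9 with C27H5.10. In all, 192 of the regions lay near 1 snoRNA gene and 10 near 2. F25H2.14 and C24G7.6 had 3 regions each, and among genes with 2 the strongest region was that of W03C9.9. The strongest region at F25H2.14 had a pooled signal of 52.2 and that at C24G7.6 a pooled signal of 34.5, so the genes with most regions were not those with the strongest.

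Genes that stand between protein-coding genes gave 7 of the 21 IDR peaks, among them 3 of the 5 strongest. At ZK265.10 (peak at I:8259315-8259784) the pooled signal was 186, rank 6 of 30000, with 88.4 in replicate 1 and 98.3 in replicate 2. At W03C9.9 (II:11960754-11960931), with box C and box D letters, it was 166, rank 8, with 68.4 and 98.1. At T06C12.16 (V:15873746-15874215) it was 145, rank 13, with 75.6 and 71.8. These 3 were among the 20 strongest regions of each replicate list as well. Y75B12B.12 (V:15190790-15191259) had a pooled signal of 102, and its signals in replicates 1 and 2, 29.7 and 76.4, were the most unequal in SD among the 21 (53.1 ± 33.0, mean ± SD, n = 2). C41C4.11 (II:8107067-8107536) had 96.7 in the pooled list, 56.03 in replicate 1 and 45.3 in replicate 2. Y17G7B.25 (II:12042198-12042667) had 94.2, 47.99 and 48.5, with a summit 287 bp upstream of the gene, the farthest of the 21. ZK20.9 (II:11634897-11635366), an H/ACA gene by its letters, had 79.2, 38.0 and 34.4. The group thus reached from the top of the list to its cutoff, at rank 324.

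Genes in an intron of a host gene on the opposite strand gave 5 IDR peaks, and here the snoRNA cannot be spliced out of the host's transcript. T03F7.8 lies in cutl-18, a cuticlin-like gene, and its peak at V:11314145-11314280 had a pooled signal of 146, with 79.8 in replicate 1 and 61.6 in replicate 2. ZK484.9 lies in haf-9, which encodes an ABC transporter, and its peak at I:6082591-6083060 had 119, with 56.9 and 62.5. C04G6.12 lies in mpk-2, a MAP kinase gene, and its peak at II:5105049-5105518 had 117, with 53.1 and 64.0. All 3 peaks ranked among the 54 strongest regions of each replicate list. C27H5.9 lies in pdl-1, with a peak at II:7183849-7184318 of pooled signal 103, 46.4 in replicate 1 and 59.3 in replicate 2. B0334.12 lies in twk-5, a potassium channel gene, with a peak at II:11484555-11485024 of pooled signal 89.2, 33.2 in replicate 1 and 55.6 in replicate 2. Its summit was the only 1 of the 21 downstream of the snoRNA gene, 107 bp from the gene start.

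Genes in an intron of a host on the same strand gave 7 IDR peaks. ZK994.7 lies in pxn-1, a peroxidasin gene, with a peak at V:8500356-8500825 of pooled signal 143, 61.0 in replicate 1 and 78.6 in replicate 2. C10C6.8, an H/ACA gene by its letters, lies in catp-8, a cation-transporting ATPase gene, with a peak at IV:11474081-11474550 of 128, 59.9 and 70.6. C27H6.5 lies in unc-41, whose product acts in synaptic vesicle endocytosis, with a peak at V:9970030-9970499 of 106, 40.5 and 59.4. All 3 were higher in replicate 2 than in replicate 1, but the lists were not scaled to each other and the median of replicate 2 was also the higher, 18.3 against 16.4. W08G11.6, another H/ACA gene by its letters, lies in W08G11.3, with a peak at V:16369960-16370429 of 101, 50.8 and 42.1. F38E11.14 lies in cng-3, a cyclic-nucleotide-gated channel gene, with a peak at IV:9477494-9477963 of 100.1, 31.8 and 69.1. F55A11.10, with box C and box D letters, lies in F55A11.6, with a peak at V:11782721-11783190 of 88.5, 29.2 and 53.1. M106.6 lies in mix-1, which encodes a condensin subunit, with a peak at II:10839999-10840468 of 79.2, 46.7 and 22.1. The M106.6 peak has its summit in coding sequence of mix-1 and ranked 143 in replicate 1 but 8944 in replicate 2, so the replicates ranked it far apart.

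The strongest region near any snoRNA gene lay at C51F7.4, a gene that overlaps an exon of frm-7, a gene for a FERM-domain protein, although the summit is in intron sequence. That peak, V:12303519-12303748, had a pooled signal of 234, rank 4 of 30000, with 93.8 in replicate 1 and 139 in replicate 2 (116 ± 31.9, mean ± SD, n = 2), and it ranked 4 in each replicate list. The last of the 21, T02E1.9, lies partly in a protein-coding exon, with a peak at I:8224229-8224698 of pooled signal 98.3, 36.6 in replicate 1 and 64.4 in replicate 2.

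All 21 IDR peaks had a match in both replicate lists. Their signals ran from 29.2 to 93.8 in replicate 1 and from 22.1 to 139 in replicate 2, all above the median of the list concerned. IDR peaks have the highest signal in the pool of these same replicates. A match and a signal above the median in each list thus follow largely from that choice. The strongest regions of each replicate list were taken, as many as there were IDR peaks in the whole series. Of the 21, 12 were among these strongest regions in both replicates, and 1 was among them in neither. Of all IDR peaks of the series, 98, or 28.7%, had a match among them in both. Just under the cutoff stood Y38F2AR.14, with a pooled signal of 77.9 at rank 362, while the weakest IDR peak of the list had 78.74 and the strongest other region 78.73. The cutoff thus falls within a continuous run of values. Replicates differed most in rank for T08B2.13, with a signal of 33.8 and rank 997 in replicate 1 against 13.5 and rank 28220 in replicate 2. Next came Y74C9A.6, with 30.3 and rank 1742 in replicate 1 against 13.6 and rank 27851 in replicate 2.

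**Figure D2:**
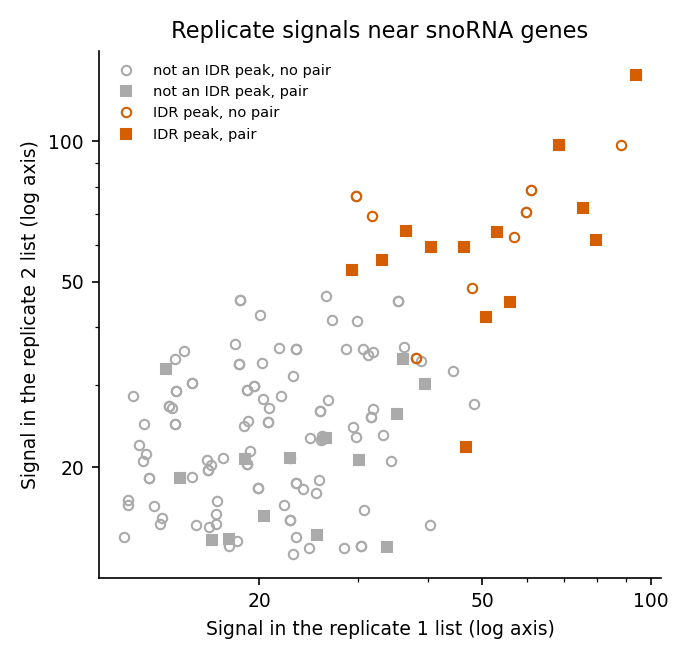
Signal in the replicate 1 list (x, log axis) against signal in the replicate 2 list (y, log axis) for the 150 regions near snoRNA genes matched in both lists; orange symbols are IDR peaks and filled squares have the A-box and B-box pair within 100 bp of the summit. The IDR peaks take the upper right, from 29.2 to 93.8 in replicate 1 and from 22.1 to 139 in replicate 2, although some weaker regions share their replicate values through overlap.

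The rule sets how far a summit can lie from the gene but not on which side or at which point. Measured along the gene from its annotated start, the median summit position was -27.5 bp over the 202 regions, from -499 to 659, and -31 bp over the 21 IDR peaks, from -287 to 107. The 100 bases before the start held 58 of the 202 summits, or 28.7%, and make up 9.10% of the sequence the rule covers. They held 14 of the 21 IDR peaks and 44 of the other 181 regions. Regions with a summit in those 100 bases had a median pooled signal of 43.2, and 24.1% of them were IDR peaks. Regions with a summit elsewhere had a median of 34.9, and 4.86% of them were IDR peaks. By side, 116 regions lay upstream of the gene with 16 IDR peaks, 32 inside it with 4, and 54 downstream with 1.

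**Figure D3:**
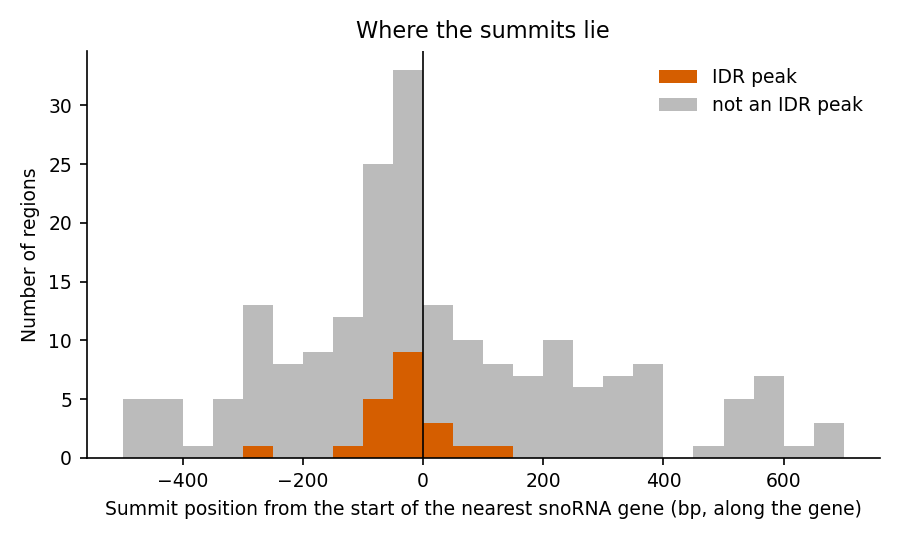
Number of regions near snoRNA genes (y) by position of the summit from the start of the nearest snoRNA gene in bp along the gene (x, bins of 50 bp), with IDR peaks in orange and other regions in grey. The highest bars stand just before the start at 0, where 14 of the 21 IDR peaks lie within 100 bases.

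Regions on either side of the 500 bp limit had like signals. Just inside it were T06D8.11, at 495 bp with a pooled signal of 40.9, and B0393.10, at 499 bp with 40.2. Just outside were W01A11.21, at 501 bp with 35.5, and K08F11.8, at 503 bp with 44.7.

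Gene context and gene length differed between the snoRNA genes with IDR peaks and the rest. Among 27 genes in introns of the opposite strand, 14 had a region and 6, or 22.2%, had an IDR peak. Among 142 in introns of the same strand, 73 had a region and 8, or 5.63%, had an IDR peak. Among 124 between protein-coding genes, 66 had a region and 7, or 5.65%, had an IDR peak, and among 47 that overlap an exon 14 had a region and 1 an IDR peak. Having any region was thus about as common in introns of either strand, at 51.9% for the opposite and 51.4% for the same strand, and the classes parted in the share with a peak of high signal.

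Most of the genes with an IDR peak were short. Of the 23, 18 were annotated at 100 bases or shorter, or 78.3%, against 40 of 147 genes with another region and 37 of 176 with none. The medians were 75, 129 and 133 bases. Short genes had an IDR peak in 18 of 95 cases, or 18.9%, and longer ones in 5 of 251, or 1.99%. The limit of 100 bases was chosen after the lengths were seen. Box C/D snoRNAs are in general shorter than box H/ACA snoRNAs, but the letters of the annotated genes named the class for few. TGATGA near the start with CTGA near the end was found in 15 of 346 genes, 3 of them with an IDR peak. For H/ACA, ACA starting 5 to 8 bases before the gene end was found in 82, 3 of them with an IDR peak. That range is a tolerance around the H/ACA position, so some of the 82 may match by letters alone. The other 249 stayed unassigned, 17 of them with an IDR peak. With 1 mismatch allowed in box C, box C and box D were found in 8 of the 23 genes with an IDR peak, or 34.8%. They were found in 22 of the 147 with another region, or 15.0%, and 14 of the 176 with none, or 7.95%.

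By chromosome, 16 of the 21 IDR peaks near snoRNA genes lay on II or V, or 76.2%, which hold 36.4% of snoRNA genes, 37.0% of all pooled regions and 35.7% of all IDR peaks. These chromosomes had the most such peaks, 8 each, so their joint share is the highest that any pairing of chromosomes could give. On II, 9 of 71 snoRNA genes had an IDR peak, and on V 9 of 55 did. On I there were 3 of 74, on IV 2 of 59, on III 0 of 54 and on X 0 of 33. Any region at all was present at between 47.3% and 53.5% of the snoRNA genes of each autosome and at 10 of the 33 on X, or 30.3%. In the whole list X had 16.6% of the pooled regions and 14.9% of the IDR peaks, and III had 15.7% and 16.1%. On III the strongest region had a pooled signal of 76.2, just below the IDR cutoff, and on X 39.3. The regions on X thus stayed close to the median of the list, and those on III reached nearly to the cutoff.

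The pair of an A box and a B box was found at many of the strong regions near snoRNA genes, in a search chosen after the sequences of the 30 strongest regions had been read. Within 100 bp of the summit, on either strand, it was found in 13 of the 21 IDR peaks near snoRNA genes, or 61.9%. With no mismatch allowed in the B box it was found in 5, or 23.8%, and over the 11 settings tried in 2 to 16. As searched, it was found in 16 of the other 181 regions, or 8.84%, and in 580 of all 30000, or 1.93%. Among IDR peaks near tRNA genes, which carry such boxes, 16 of 23 held it, as did 177 of the 401 regions near tRNA genes whatever their strength, or 44.1%. Among the 298 IDR peaks near neither kind of gene 2 held it, or 0.671%. The 8 IDR peaks near snoRNA genes with no such pair in the window were those at ZK265.10, ZK994.7, C10C6.8, ZK484.9, Y75B12B.12, F38E11.14, Y17G7B.25 and ZK20.9. For C10C6.8 and Y75B12B.12 the pair lay before the gene but was not wholly in the window of the summit. At B0334.12, 1 of the 13, the pair was in the window of the summit but was not found in the search along the gene described below. A missing pair says only that these letters are not in that window.

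**Figure D4:**
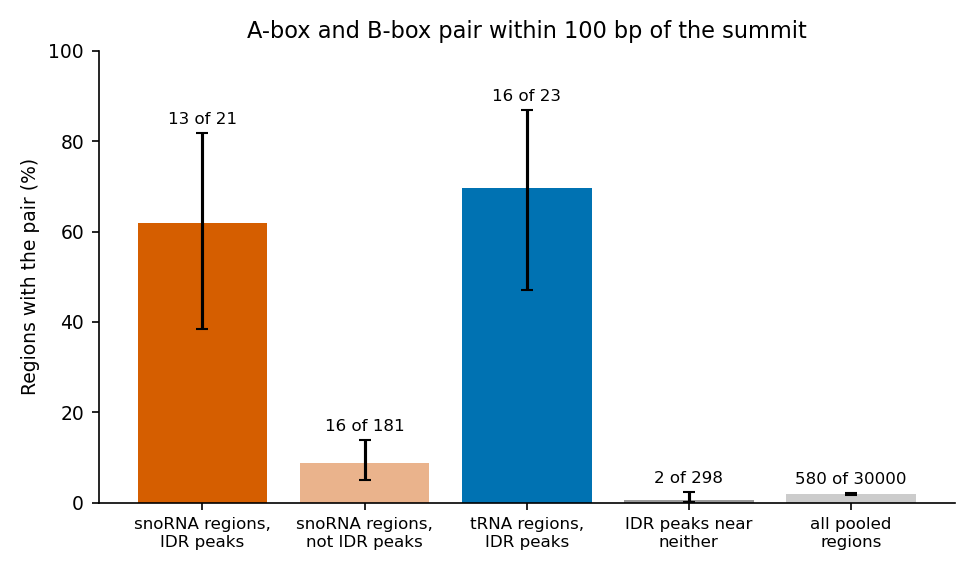
Share of regions (%, y) with an A box and a B box within 100 bp of the summit, for IDR peaks and other regions near snoRNA genes, IDR peaks near tRNA genes, IDR peaks near neither and all pooled regions; error bars are exact Clopper-Pearson 95% intervals, which cover counting only. The shares of IDR peaks near snoRNA genes (13 of 21) and near tRNA genes (16 of 23) stand far above the 580 of 30000 over all regions. With no mismatch allowed in the B box the first falls to 5 of 21. The 21 IDR peaks near snoRNA genes are among the 30 regions whose sequences prompted the search, so their share describes those regions. Outside those 30 the pair was in 14 of 172 regions near snoRNA genes.

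Counted over genes, from 200 bases before the start to 150 after it on the gene's own strand, 39 of the 346 snoRNA genes carried the pair, or 11.3%. It was present at 15 of the 23 genes with an IDR peak (65.2%), 19 of the 147 with another region (12.9%) and 5 of the 176 with no region (2.84%). C51F7.4 and C51F7.3 share 1 pair and 1 peak, so the 39 genes hold 38 distinct pairs and the 15 genes 14. The same window held it on the opposite strand of 5 of 346 snoRNA genes (1.45%) and on the gene's strand at 101 of 19973 protein-coding genes (0.506%). Inside annotated tRNA genes it was found in 588 of 612, or 96.1%. Read the other way, 34 of the 39 snoRNA genes with the pair had a region and 15 had an IDR peak, or 38.5%. Of the 307 genes without it, 136 had a region and 8 had an IDR peak, or 2.61%.

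Among genes of 100 bases or shorter the pair was found at 12 of 18 with an IDR peak, 10 of 40 with another region and 0 of 37 with none. Since the search came from the 30 strongest regions, the count at IDR peaks describes the genes that prompted it. Genes whose regions were all outside those 30 carried the pair in 17 of 138 cases, or 12.3%.

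The pair kept to a narrow place, within limits set by the search. Where a gene held several pairs, the one with fewest B box mismatches was taken, then the one nearest the start. That choice can favour positions near the start, and spacing could only run from 25 to 80 bases. Over the 39 genes the B box began at a median of 14 bases before the annotated start, from 56 before it to 134 after it, and in 32 of the 39 it began in the 40 bases before the start. The A box began at a median of 60 bases before the start, and the median spacing from A box to B box was 45 bases, from 33 to 69. The 15 genes with an IDR peak and the 19 with another region had the same median B box position and the same median spacing. For most of these genes the annotated snoRNA thus began just after the B box. Exceptions with both boxes inside the gene were C51F7.4, whose boxes also lie before its neighbour C51F7.3 under the same IDR peak, Y77E11A.21 and K07C5.10, with other regions, and C33E10.11, with none.

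**Figure D5:**
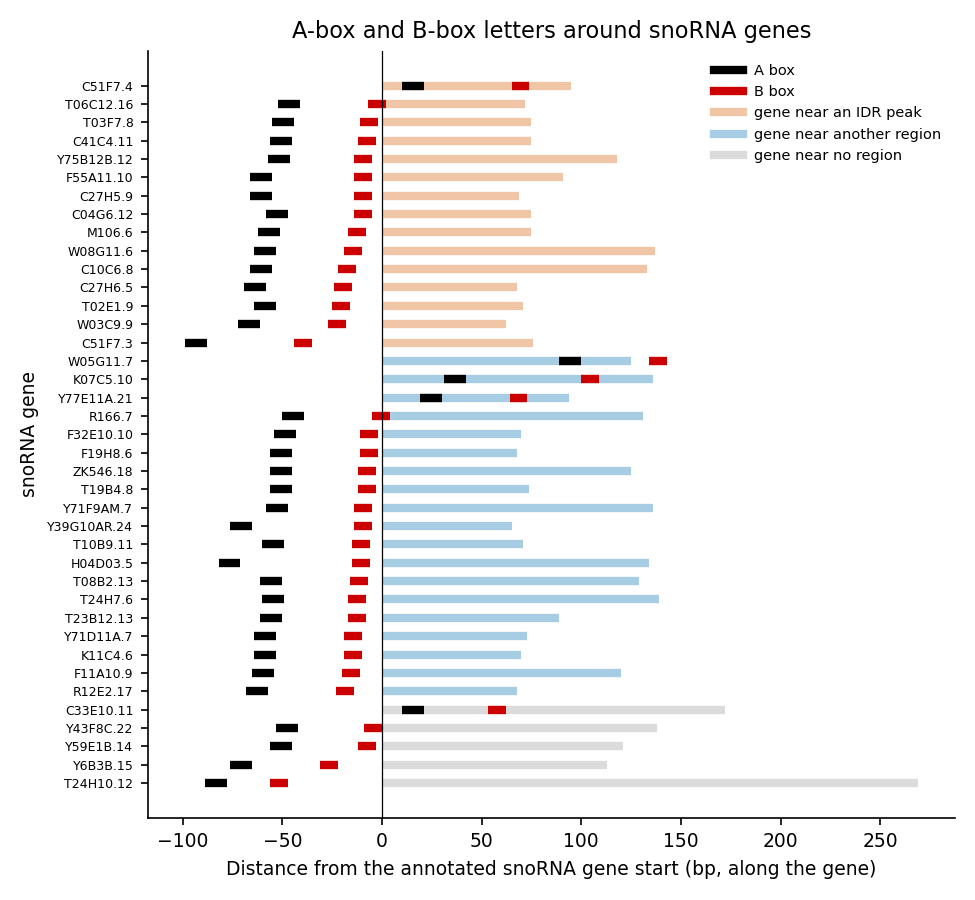
Position of the A box (black) and B box (red) from the annotated start of each of the 39 snoRNA genes that carry the pair (x, bp along the gene), with the gene drawn as a pale bar coloured by whether it had an IDR peak, another region or no region. In 32 of the 39 genes the B box begins in the 40 bases before the gene.

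The 29 regions with the pair near the summit had a median pooled signal of 71.7, from 23.1 to 234, and the 173 without it a median of 34.8, from 21.6 to 186. That difference lay in the 30 strongest regions, whose sequences prompted the search and which hold 15 of the 29. Outside those 30, the 14 regions with the pair had a median pooled signal of 35.1 and the 158 without it 33.2. There the medians with and without the pair were 19.6 and 19.9 in replicate 1, and 19.9 and 23.1 in replicate 2. Among these weaker regions no higher signal was seen with the pair in either replicate list. T19B4.8 and T24H7.6, with the pair, were just below the IDR cutoff at pooled signals of 74.8 and 71.7. T10B9.11 and F19H8.6 also carried it, with pooled signals of 28.6 and 29.0, below the median of the list. These 4 genes, the 3 others with both boxes inside the gene and Y38F2AR.14 were named after their values were seen.

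GATA factors bind sites with the core GATA, and the form TGATAA was no more common in the 202 regions than in all pooled regions. It was found within 100 bp of the summit in 15 of the 202 regions, or 7.43%, beside 12.5% of all pooled regions. Of the 21 IDR peaks 2 held it, or 9.52%, those at C41C4.11 and Y17G7B.25, beside 15 of the 298 IDR peaks near no snoRNA or tRNA gene, or 5.03%. The B box letters with no mismatch were found in 21 of the 202, or 10.4%, beside 2.51% of all. TGATGA, the box C letters, was found in 46, or 22.8%, beside 16.1% of all, and CGCCGC, a hexamer common in strong peaks of these data, in 26, or 12.9%, beside 8.24%. Among the 21 IDR peaks TGATGA was in 28.6%, beside 10.7% of the 298 IDR peaks near no snoRNA or tRNA gene. For CGCCGC these shares were 19.0% and 23.8%. The hexamer with the largest excess in the 21 IDR peaks over all regions was CGCGCA, in 8 of them, or 38.1%, beside 4.58% of all. Next came GGCCAC, also in 8, beside 6.26% of all. Its reverse complement, GTGGCC, covers the start of the A box of T03F7.8 and C04G6.12 and the base before it.

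Base composition and repeats moved with these results in part. Mean GC content of the 201 bp windows was 45.5 ± 6.78% (SD over 202 regions), 49.99 ± 5.13% in the 21 IDR peaks, 53.3 ± 7.09% in all IDR peaks and 43.2% over all regions. Windows with the pair had a median GC content of 49.3% and those without it 44.8%. Windows in which over 5% of the 31-base words occur elsewhere in the genome numbered 14 of 202, or 6.93%, and 0 of the 21 IDR peaks, beside 11.9% of all regions and 54.5% of regions near tRNA genes. The part of GC content in the signal was not tested. A promoter window of a protein-coding gene, from 1000 bp before to 200 bp after a start site, took in 79 of the 202 summits, or 39.1%, beside 26.7% of all, and 7 of the 21 IDR peaks. For repeats and promoter windows the shares over all IDR peaks are not given, so the 21 are not compared with strong peaks in general.

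Regions near other small RNA genes, found by the same distance and not near a snoRNA gene, gave lower shares of strong peaks. Near tRNA genes 23 of 400 were IDR peaks, or 5.75% (exact 95% interval 3.68 to 8.50%), with a median pooled signal of 35.7, close to the 36.2 near snoRNA genes. Near snRNA genes 1 of 51 was, with a median of 27.1, and near piRNA genes 3 of 599, or 0.501%, with a median of 28.3. The interval for snoRNA genes, 6.55 to 15.5%, overlaps that for tRNA genes.

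The genes for protein partners of snoRNAs gave counts near those of protein-coding genes at large. Of 11 genes for box C/D and box H/ACA core proteins, assembly factors and a nucleolar protein, 3 had a pooled region in the promoter window, beside 33.7% of 19973 protein-coding genes. None had an IDR peak there (0 of 11), beside 0.571%, a share at which 0 of 11 says nothing about these genes. The region at fib-1, the gene for fibrillarin, the methyltransferase of box C/D particles, had a pooled signal of 62.2 at rank 1256, with 23.8 in replicate 1 and 34.1 in replicate 2. Y48A6B.3, a box H/ACA protein gene, had 62.4 at rank 1228, with 34.7 and 28.7. The region at dkc-1, the gene for the pseudouridine synthase of box H/ACA particles, had 21.5 at rank 29580 and no match in either replicate list.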

How the data were processed

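ChIP-seq region lists on ce11 were analysed. The authors deposited a list called on each of 2 biological replicates, a list called on the pooled replicates and labelled as peaks and background, and IDR peaks. Their signal column, as deposited by the authors, holds the caller's value, with no scale given, and another column holds −log10 of a q-value, as deposited by the authors. The labels name a possible control, which was not analysed here. Neither aligner nor caller nor cutoff of the IDR filter is named in those sources. The deposited ce10 lists were not used. No read counts were used, so the depth of each sample and its precision are unknown.

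Genes came from Ensembl release 115 on WBcel235. Replicate regions were matched by at least 1 bp, taking the strongest match. The distance and overlap steps were checked on simulated data. Windows were 201 bp, and both strands were searched. Python 3.11.15, numpy 2.4.6, pandas 2.3.3, scipy 1.17.1 and matplotlib 3.10.9 were used. With 1 group and regions that are not replicates, shares and medians were set beside those of all pooled regions with no test. Intervals are exact Clopper-Pearson at 95% and cover counting only.

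The set of regions, the gene list and the rules were chosen with earlier results of these data known. Genes were named when near an IDR peak, just inside or outside 500 bp, with most regions, or with the largest rank difference between replicates. The search for the box pair was added after the sequences were seen. Of 11 settings tried, the one that found the pair in most tRNA genes was kept, 96.1% against at most 91.8% for the others of the 11. The searches with no mismatch in the B box and with 1 mismatch in each box were alternatives outside the 11. A search with 1 mismatch in each box allows every pair of the kept setting. The share of tRNA genes therefore could not favour the kept setting over it. Alternatives covered the distance, the region edge, the overlap, merging, each replicate's own list and the box letters.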

Additional observations from a re-analysis of the deposited data

How the results depend on the processing

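Of 66 values recomputed under alternatives, 46 stayed within a tolerance (1.5 times for the number of regions, the 95% interval for shares, the SD between replicate lists for medians) and 20 did not. The tolerance is wide: the number of regions ran from 151 at 250 bp to 261 from the region edge within it. With a distance of 1000 bp there were 331 regions, 6.95% of them IDR peaks and 4.53% among the strongest of both replicates, with a median pooled signal of 34.8, 13.0% at a q-value of at most 0.05, 65.9% of snoRNA genes reached and a median summit position of -32 bp. With 250 bp, 38.7% of genes were reached and the position was -22 bp. Measured from the region edge these were 60.4% and -32 bp. Merging overlapping regions gave a median signal of 37.4 and a position of -31 bp, and keeping regions near tRNA genes a position of -25 bp. Requiring overlap of 50% of the region left 60.4% matched in both replicate lists, beside 45.4% of all pooled regions. In the list of each replicate alone, median signal was 18.9 to 20.6, on that list's scale, the position -27 to -25 bp, and the share among the strongest regions, as many as there are IDR peaks, 7.73 to 11.3%.

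The box pair depended most on its letters. With no mismatch in the B box it was found at 23.8% of IDR peaks near snoRNA genes, 26.1% of the genes with an IDR peak and 3.41% of the other snoRNA genes, which is 7.43% in the search used. With 1 mismatch allowed in each box, 21.1% of the other genes held it, and 71.4% of the IDR peaks, beside 9.55% of all regions. With each replicate's own strongest regions the pair was at 47.8 to 56.3% of those near snoRNA genes. Over the 11 settings it was found at 2 to 17 of the 23 genes with an IDR peak, 7 to 56 of the 147 with another region and 2 to 32 of the 176 with none. No paired analysis was possible because there is 1 group.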
